A study of Mus musculus with 2 samples.

Results

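Genes of the cadherin superfamily outside the clustered protocadherins were read in total RNA from mouse hippocampus. Members were all genes whose symbol is Cdh, Pcdh, Celsr, Fat or Dchs followed by a number, together with Pcdh11x, which gave 44 of 55536 annotated genes and 240 of 141767 annotated transcripts. The clustered protocadherins, the desmosomal cadherins and other genes with a cadherin repeat but another symbol stand outside this rule.

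The 2 libraries are of male mice of the hybrid strain B6CASTF1/J, aged 25 days, and form 1 group with no treatment, genotype or age to compare. The labels call the tissue a layer of the hippocampus and number the libraries as biological replicates from separate tissue samples that share a donor identifier, so an unknown part of their spread may be technical. The input was 300 ng of RNA for either library, with synthetic ERCC spike-ins. What can be described is therefore the level of each gene and transcript, and how far the replicates lay apart.

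Cadherins are calcium-dependent adhesion proteins of the cell surface. Classical cadherins bind partners of their own kind or of a close kind on the neighbouring cell and hold the actin skeleton through catenins, and in the brain they sit at synapses and at contacts between layers. Type I members carry a conserved HAV tripeptide in the outermost repeat, and type II members do not. Non-clustered protocadherins of the delta-1 and delta-2 subgroups differ in the number of their outer repeats and in their cytoplasmic motifs, and those of the delta-2 subgroup can recruit the WAVE actin regulators. Celsr proteins join cadherin repeats to a seven-helix receptor, and Fat and Dachsous are giant cadherins that bind each other between cells in planar polarity.

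Annotated genes received 30635891 expected counts from replicate 1 and 35713471 from replicate 2, of which the 44 genes took 0.344% and 0.331%. An expected count shares out reads that match several features. TPM, or transcripts-per-million, is the unit of levels and divides by length. Pan-neuronal markers lay between 121 and 831 TPM on average, and all 5 dentate granule cell, all 4 CA1 and all 4 CA3 markers reached 1 TPM. Astrocyte, oligodendrocyte and microglia markers were present as well (15 of 15 at 1 TPM or more), whereas the 4 measured cerebellar markers stayed at or below 0.5 TPM on average. Of the fibroblast and meninges markers 5 of 6 reached 1 TPM, and they summed to 170 TPM in replicate 1 and 238 TPM in replicate 2. Ptgds alone held 140 and 199 TPM of these sums. Of the choroid plexus markers 2 of 6 reached 1 TPM, and of the ependymal markers 3 of 5. The choroid plexus markers summed to 53.6 and 66.3 TPM, of which Ttr alone held 47.9 and 61.0 TPM. These 2 sums thus rest mostly on 1 gene each. In such bulk tissue, fewer cells of a type and less RNA per cell cannot be told apart.

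Most of the family was expressed in the hippocampus, and a few genes carried much of it. Of the 44 genes, 36 reached a mean of 1 TPM, against 58.9% of all protein-coding genes, and 19 reached 10 TPM, against 36.8% of protein-coding genes. The median was 7.47 TPM over the 44 genes and 3.42 TPM over protein-coding genes. Among genes at 1 TPM or more, however, the median was 13.2 TPM for members and 15.05 TPM for protein-coding genes. The TPM of the 44 genes summed to 896 in replicate 1 and 853 in replicate 2. The 5 highest genes (Pcdh1, Celsr2, Pcdh9, Pcdh20 and Cdh2) made up 51.5% and 50.7% of these sums. Ranked by mean TPM, 18 of the 35 neighbouring pairs among the 36 genes at 1 TPM or more were apart, meaning that both replicates of the higher gene exceeded both of the lower. The order of the other pairs is within the spread between replicates.

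**Figure D1:**
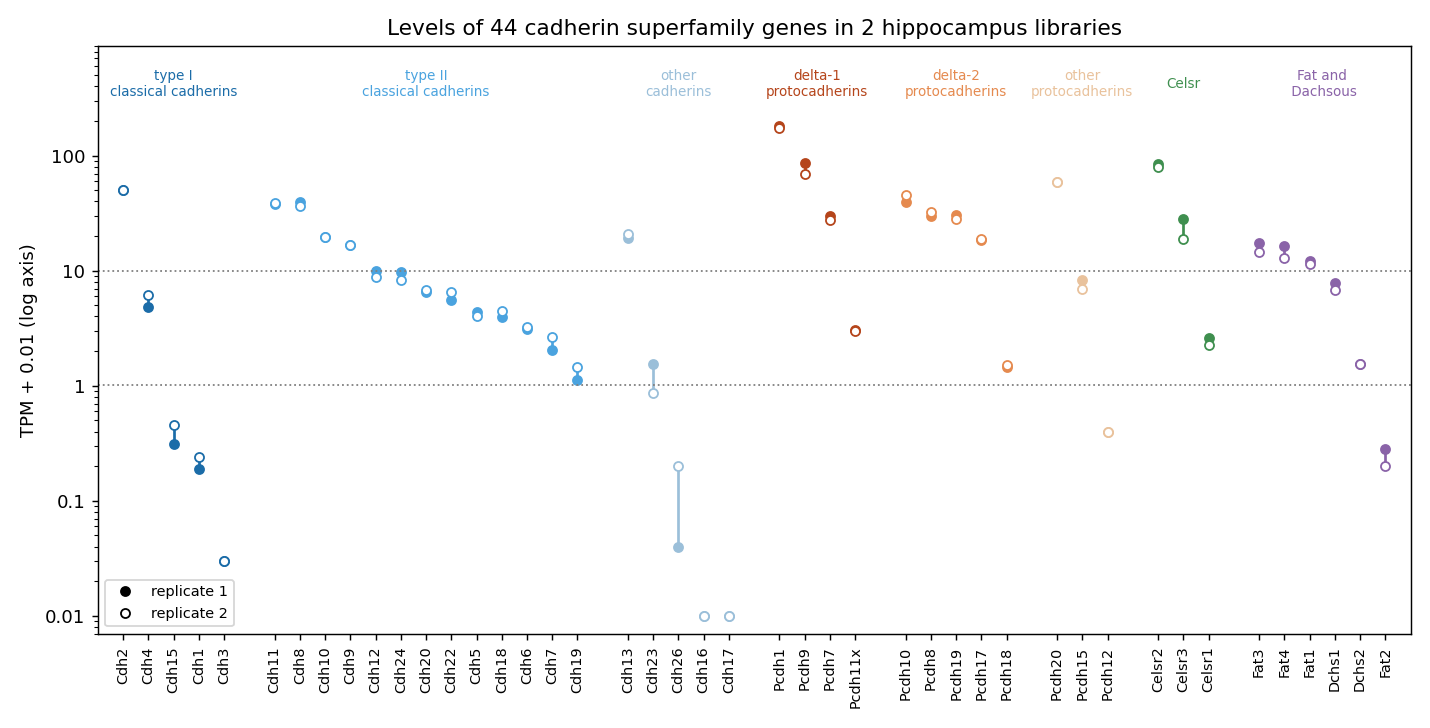
Level of each of the 44 genes in TPM (0.01 added, log axis), grouped by subfamily and ranked within it, with filled circles for replicate 1, open circles for replicate 2 and dotted lines at 1 and 10 TPM. Pcdh1 stands highest at 181 and 174 TPM, while Cdh16 and Cdh17 had no expected counts.

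Transcript shares below are the percent of a gene's TPM that the quantification gave to each annotated transcript, named by the gene symbol and a number. They were examined in the 35 genes that had 100 or more expected counts on average. Such splits are estimates of a model, and a second quantification of the same libraries with kallisto is given beside the RSEM values. A transcript counted as full length if its coding region reached 90% of the longest annotated for the gene, and coding ends are the positions at which annotated coding regions stop.

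Among type I classical cadherins, Cdh2, which encodes the neuronal N-cadherin, was the main member. It stood at 50.6 TPM in replicate 1 and 50.8 TPM in replicate 2. Cdh4, the retinal or R-cadherin, followed at 4.79 and 6.13 TPM. Both replicates thus placed Cdh4 far below Cdh2. The other 3 members stayed below 1 TPM in both libraries. Cdh15, known from muscle, had 0.30 and 0.45 TPM, the epithelial Cdh1 had 0.18 and 0.23 TPM, and Cdh3, the placental P-cadherin, had 0.02 TPM in each library, from 2 expected counts. Cdh2 was shared between 2 coding transcripts with the same coding end: Cdh2-201 with 2718 coding bases took 49.0% and 53.6%, and Cdh2-202 with 2547 coding bases took 44.8% and 43.4%.

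All 13 type II classical cadherins reached 1 TPM on average, and 4 of them reached 10 TPM. Cdh11, best known from mesenchyme and bone and also present in hippocampal neurons, stood at 38.05 and 39.0 TPM. Cdh8, a synaptic cadherin, stood at 39.8 and 36.5 TPM. The ranges of these leading genes overlapped. Transcripts annotated as retained introns held 28.3% and 24.8% of the TPM of Cdh11, and 38.6% and 31.4% in kallisto. They had 396.3 and 268.15 of its 3547.6 and 4248.88 expected counts. Over coding transcripts alone, Cdh11 had 27.3 and 29.3 TPM, below the 38 and 35.7 TPM of Cdh8. Cdh10 followed at 19.6 and 19.7 TPM. Cdh9, which in mice helps to form mossy fibre synapses on CA3 neurons, stood at 16.65 and 16.9 TPM. Neither pair of replicates overlapped with the other. Between 10 TPM and 5 TPM lay Cdh12 (9.88 and 8.77), Cdh24 (9.67 and 8.37), Cdh20 (6.48 and 6.85) and Cdh22 (5.50 and 6.47). Cdh18 had 3.98 and 4.42 TPM, Cdh6 had 3.09 and 3.24 TPM, and Cdh7 had 2.02 and 2.65 TPM. The lowest was Cdh19, a cadherin of glia, at 1.12 and 1.45 TPM. Cdh5 encodes the VE-cadherin of endothelial junctions and stood at 4.38 and 4.06 TPM. The 6 endothelial markers (Cldn5, Pecam1, Tek, Flt1, Slco1a4 and Esam) summed to 78.4 TPM in replicate 1 and 66.0 TPM in replicate 2, and all 6 reached 1 TPM. The part of endothelial cells in the level of Cdh5 was not tested.

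Cdh8 had 4 coding ends that each held 10% or more of its TPM in both replicates, more than any other member. The gene lies on the minus strand of chromosome 8 (mm10, 99024471 to 99416471). Cdh8-204, with 2133 coding bases, took 38.5% of its TPM in replicate 1 and 36.6% in replicate 2. Cdh8-203, which has the longest coding region with 2397 bases, took 27.3% and 24.7%. The replicates agree on this order. Cdh8-201, with 2148 coding bases, took 15.1% and 20.0%, and Cdh8-207, with 2262, took 12.8% and 13.4%. Cdh8-203 and Cdh8-207 both count as full length and together held 40.1% and 38.1%. By expected counts Cdh8-203 led, with 37.3% and 33.0%. Kallisto gave the same order of the first pair, with 38.8% and 37.5% for Cdh8-204 and 32.0% and 27.5% for Cdh8-203, and at least 10.02% to each of the other two. The coding sequence around the point at which these forms part is shown because it carries the difference. Lower-case letters at the left are coding bases that the transcript shares with the one it is set against, and capitals are its own coding bases, in the transcript's 5′ to 3′ direction from the GENCODE M21 transcripts. Cdh8-203 is set against Cdh8-204 and the rest against Cdh8-203.
Cdh8-203: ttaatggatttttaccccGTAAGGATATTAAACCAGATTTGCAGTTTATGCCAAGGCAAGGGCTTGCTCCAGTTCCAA
Cdh8-204: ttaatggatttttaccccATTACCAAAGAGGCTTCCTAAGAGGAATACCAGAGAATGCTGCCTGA
Cdh8-201: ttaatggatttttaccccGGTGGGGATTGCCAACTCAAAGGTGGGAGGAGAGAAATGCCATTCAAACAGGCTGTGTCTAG
Cdh8-207: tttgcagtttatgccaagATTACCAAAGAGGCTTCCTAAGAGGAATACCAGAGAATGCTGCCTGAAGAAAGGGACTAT
Cdh8-203, Cdh8-204 and Cdh8-201 part at the same base. In Cdh8-203 the capitals, of which the first 60 of 311 are shown, run on in the exon through a GT at which Cdh8-204 and Cdh8-201 leave it. The capitals of Cdh8-204 are all of its last 47 coding bases and end at a stop codon, and those of Cdh8-201 are its last 62. Cdh8-207 stays in the exon of Cdh8-203 for a further stretch and then joins the same downstream exon as Cdh8-204, in another reading frame, so that it passes the stop of Cdh8-204 and has 139 coding bases of its own, 60 of which are shown.

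Of the other cadherins, Cdh13 was the only one above 10 TPM in these libraries. It encodes a cadherin held in the membrane by a lipid anchor and stood at 19.3 and 20.8 TPM. Cdh23, a component of hair cell tip links in the ear, had 1.54 and 0.86 TPM. Transcripts with no coding region held 74.0% and 85.9% of the TPM of Cdh23, so that its coding TPM in RSEM was 0.40 and 0.12. Kallisto gave 45.5% and 65.3% to such transcripts. The 438-base Cdh23-206, which has no coding region, took 62.3% and 34.1% in RSEM from only 6.75 and 2.38 expected counts. Of the 104 and 106 expected counts of the gene, the coding Cdh23-205 had 91.09 and 27.1. The retained-intron Cdh23-209 had 0 and 58.4. The counts thus place most reads of replicate 1 on a coding transcript, unlike the TPM. Cdh26 had 0.03 and 0.19 TPM, from only 2 and 4 expected counts. Cdh16 and Cdh17, known from kidney and intestine, had 0 counts in both libraries, which allows up to 3 counts, or 0.0979 and 0.0840 counts-per-million. These limits cover counting error only.

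The delta-1 protocadherins were the largest group by TPM, although they have only 4 members. Their summed TPM was 33.5% of the family in replicate 1 and 32.1% in replicate 2. Pcdh1 was the highest gene of the family at 181 and 174 TPM, more than any other member in both libraries. The group summed to 300 and 274 TPM, so most of its TPM was that of Pcdh1. Pcdh9 stood at 86.4 and 69.0 TPM, with replicate 1 the higher. Pcdh7 had 29.7 and 27.9 TPM. The X-linked Pcdh11x had 3.03 and 3.01 TPM and was the only member of this group below 10 TPM.

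Pcdh1 was split between coding ends, whereas in Pcdh9 and Pcdh7 only 1 defined coding end held 10% or more in both replicates in RSEM. Pcdh1-204 took 43.0% and 44.3% of the TPM of Pcdh1, and Pcdh1-203, whose annotated coding region of 1080 bases is far shorter, took 35.1% and 36.2%. Pcdh1-201 and Pcdh1-202, which share a coding end and 3114 coding bases, took 19.5% and 16.8% together. Kallisto gave 43.7% and 47.1%, 36.3% and 37.4%, and 20.0% and 15.4% to these 3 ends, so the split was close in both tables. By expected counts Pcdh1-203 led instead, with 44.0% and 45.3%; its transcript is 5416 bases long, against 3889 for Pcdh1-204. In Pcdh9, 24.2 and 16.4 TPM came from Pcdh9-203, a 656-base transcript annotated as a retained intron with only 280.25 and 224.05 of the 6452 and 6590 expected counts of the gene. This was 27.9% and 23.8% of the TPM, and 34.2% and 34.8% in kallisto. Pcdh9-205, whose coding region is annotated as open at its end, took 23.6% and 20.2%. The coding end shared by 5 other transcripts held 46.7% and 54.4%. Pcdh7 had its long coding end in 59.3% and 74.6% of TPM, while the 659-base Pcdh7-207 took 19.9% and 8.61%, a gap between the replicates that kallisto also gave (12.3% and 6.80%). Pcdh7-207 had only 69 and 32.84 of the 3279 and 4024 expected counts of the gene.

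Pcdh9 carries a coding cassette exon, on the minus strand of chromosome 14. Pcdh9-208 and Pcdh9-204 differ in their coding sequence by this exon of 102 bases (mm10, 93560476 to 93560577), printed in capitals between the bases that flank it, with the joined flanks of Pcdh9-204 below.
Pcdh9-208: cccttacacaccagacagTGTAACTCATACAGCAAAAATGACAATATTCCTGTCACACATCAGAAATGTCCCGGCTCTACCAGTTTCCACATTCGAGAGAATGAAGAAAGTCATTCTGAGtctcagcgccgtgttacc
Pcdh9-204: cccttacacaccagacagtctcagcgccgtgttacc
Among the transcripts with the long coding end, those with the exon held 12.4% and 14.6% of TPM, and 24.0% in both replicates in kallisto. Among these transcripts, which leave out the open-ended Pcdh9-205, forms without the exon held most of the TPM in both tables, and the shares differed between the tables by more than between the replicates. In Pcdh7, on the plus strand of chromosome 5, 24 coding bases at the end of the second exon (57913349 to 57913372) separate Pcdh7-203 from Pcdh7-202.
Pcdh7-203: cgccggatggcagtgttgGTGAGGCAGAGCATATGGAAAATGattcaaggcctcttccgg
Pcdh7-202: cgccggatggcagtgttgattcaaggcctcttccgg
The form with these bases held 80.1% and 73.1% of the pair's TPM, and 68.7% and 64.1% in kallisto.

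Of the 5 delta-2 protocadherins, 4 stood above 10 TPM in both libraries. Pcdh10, a protocadherin linked to activity-dependent synapse removal in mice, had 39.7 and 45.1 TPM. Pcdh8, whose rat form arcadlin is induced by neuronal activity, had 30.03 and 32.5 TPM. Pcdh19, an X-linked gene mutated in a human epilepsy syndrome of girls, had 30.4 and 28.4 TPM. Pcdh10 lay above the other two in both libraries, and the ranges of Pcdh8 and Pcdh19 overlapped. Pcdh17 had 18.7 and 19.0 TPM, below each of them. Pcdh18 was the lowest with 1.44 and 1.52 TPM.

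Pcdh10 has 4 annotated coding ends, and a short one held nearly as much TPM as the leading long one. The gene lies on the plus strand of chromosome 3 (mm10, 45378398 to 45435623). Pcdh10-202, with 3120 coding bases, took 31.3% and 29.3%. Pcdh10-204, a transcript of 1 exon with 2688 coding bases, took 30.4% and 27.2%. Pcdh10-201 and Pcdh10-203 took 14.4% and 13.3%, and 5.99% and 3.61%. The remainder, 17.98% and 26.5%, was Pcdh10-205, a 634-base transcript with no coding region and only 79.55 and 156.61 expected counts, to which kallisto gave 38.1% and 48.4%. The shares of all coding forms of Pcdh10 therefore depend on how much is given to Pcdh10-205. The first pair of sequences shows where Pcdh10-204 and Pcdh10-202 part.
Pcdh10-204: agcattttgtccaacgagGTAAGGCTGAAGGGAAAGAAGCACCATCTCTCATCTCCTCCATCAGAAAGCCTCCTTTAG
Pcdh10-202: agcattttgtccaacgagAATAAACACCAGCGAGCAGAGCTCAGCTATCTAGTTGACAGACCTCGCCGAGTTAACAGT
Pcdh10-204 runs on from the first exon through a GT and ends after 60 bases of its own, whereas Pcdh10-202 goes on for 492 bases, of which 60 are shown. The long forms in turn differ only in their last coding exon.
Pcdh10-202 end: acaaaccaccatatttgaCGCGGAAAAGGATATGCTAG
Pcdh10-201: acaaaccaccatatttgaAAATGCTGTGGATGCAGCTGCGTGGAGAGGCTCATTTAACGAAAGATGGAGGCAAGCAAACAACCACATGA
Pcdh10-203: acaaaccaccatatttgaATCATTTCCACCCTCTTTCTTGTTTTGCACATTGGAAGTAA
Their capitals are the last 20, 71 and 41 coding bases, each with its stop codon.

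Pcdh19 and Pcdh8 were each divided by 1 coding segment. In Pcdh19, on the minus strand of the X chromosome, Pcdh19-202 holds a cassette exon of 141 bases (mm10, 133682092 to 133682232) that Pcdh19-203 lacks, and 3 further coding bases elsewhere.
Pcdh19-202: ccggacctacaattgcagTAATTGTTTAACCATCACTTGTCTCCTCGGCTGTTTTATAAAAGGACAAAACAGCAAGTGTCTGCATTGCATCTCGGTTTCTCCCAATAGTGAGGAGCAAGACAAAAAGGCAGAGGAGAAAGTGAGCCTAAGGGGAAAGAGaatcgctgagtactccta
Pcdh19-203: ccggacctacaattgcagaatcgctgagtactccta
The form with the exon held 18.3 and 18.2 TPM and that without it 5.37 and 5.55 TPM, or 77.3% and 76.6% with the exon. Kallisto gave 71.6% and 71.4%. In Pcdh8, on the minus strand of chromosome 14, Pcdh8-201 keeps 291 coding bases that Pcdh8-204 removes, and the first 60 are shown.
Pcdh8-201: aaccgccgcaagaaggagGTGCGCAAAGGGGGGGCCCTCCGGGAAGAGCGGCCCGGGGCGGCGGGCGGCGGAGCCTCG
Pcdh8-204: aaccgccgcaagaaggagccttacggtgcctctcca
The form with the 291 bases held 17.7 and 18.25 TPM and that without them 9.11 and 10.6 TPM, or 66.0% and 63.2% with them, and 71.0% and 66.5% in kallisto. The capitals of Pcdh8-201 begin with GT and run on from the exon where the other transcript leaves it, as in Cdh8-203, Pcdh10-204 and Pcdh7-203. Among the members whose sequences are printed here, 4 thus have a coding form of this build. These pairs were chosen after their values were seen, and neither the other members nor other genes were examined for such forms.

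**Figure D2:**
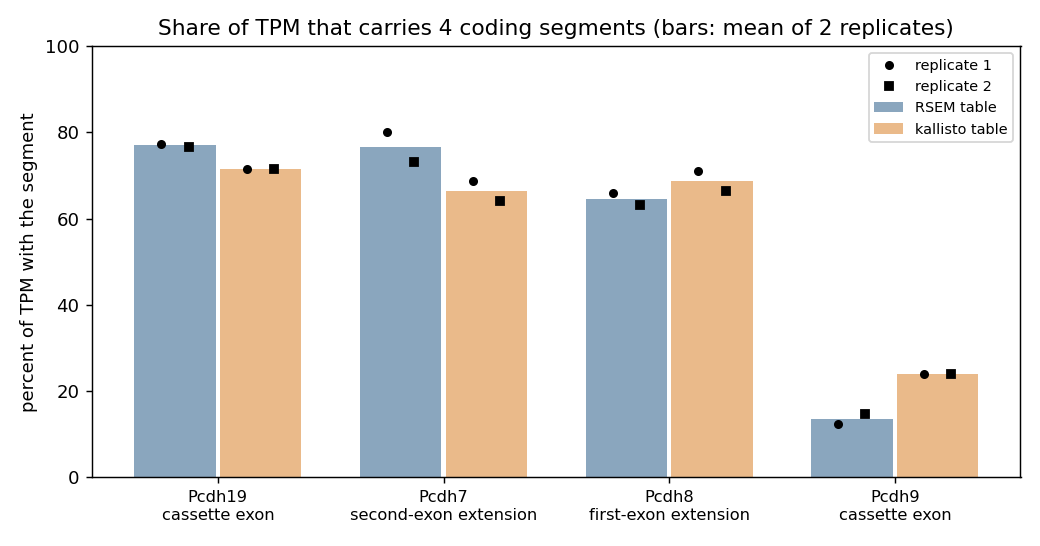
Percent of TPM, among the transcripts that differ in the segment, that carries each of 4 coding segments (141 bases in Pcdh19, 24 in Pcdh7, 291 in Pcdh8 and 102 in Pcdh9), with bars for the mean, circles for replicate 1 and squares for replicate 2. The segments of Pcdh19, Pcdh7 and Pcdh8 were in more than 60% of TPM in both tables, and that of Pcdh9 in 12.4 to 24.0%.

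**Figure D3:**
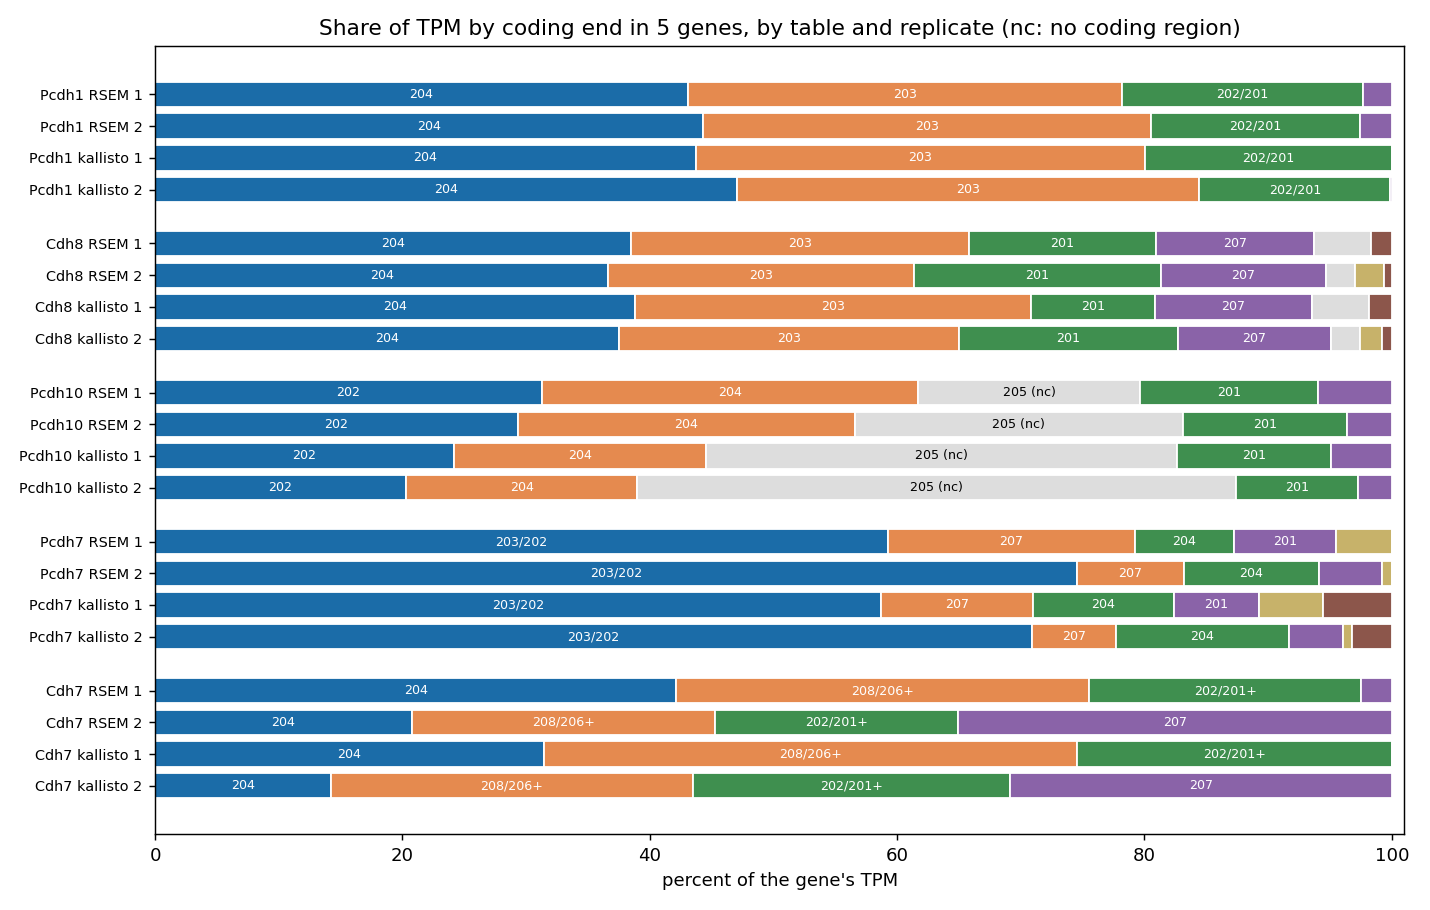
Percent of the TPM of 5 genes assigned to each coding end, for RSEM and kallisto in replicates 1 and 2. Segments name the transcripts that share the end by number, a plus marks further transcripts, and grey marks transcripts with no coding region. Cdh8-204 leads Cdh8 in all 4 rows, and the share of Pcdh10-205 runs from 17.98% to 48.4%.

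Among the other protocadherins, Pcdh20 stood out at 58.6 and 59.5 TPM, from one of the shortest genes of the family (6.65 kb). Its 2 transcripts have 2856 coding bases each and the same coding end. RSEM gave Pcdh20-201 64.8% and 64.6% of TPM, and kallisto gave Pcdh20-202 51.3% and 50.9%, so the tables disagree on the leading transcript. Pcdh15, the partner of Cdh23 in tip links, had 8.31 and 6.95 TPM. With 41 transcripts it was the most divided gene, and transcripts with no coding region held 43.7% and 46.3% of its TPM. Full-length coding transcripts held 14.7% and 12.7%, and 7.18% and 10.01% in kallisto. This leaves out the leading transcript in RSEM, Pcdh15-234, with 5031 coding bases against 5829 for the longest. Pcdh15-234 took 24.1% and 27.8% of TPM, and 18.4% and 23.2% in kallisto. Pcdh12, known from endothelium, had 0.39 TPM in both libraries, from 34 and 38 expected counts.

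The Celsr genes ranked in the same order in both libraries. Celsr2, which acts in dendrite growth, stood at 84.7 and 79.5 TPM. Celsr3, needed for the guidance of major axon tracts in mice, stood at 28.1 and 19.0 TPM. Celsr1, known from neural tube closure, had 2.61 and 2.25 TPM. The 3 genes did not overlap in either library. Celsr2-201, with 8757 coding bases, took 86.8% and 91.4% of the TPM of Celsr2. Celsr3-207 took 57.5% and 58.1% of Celsr3, and its transcripts annotated as retained introns took 31.9% and 26.2%. Kallisto gave these retained-intron transcripts 18.2% and 19.8%. They are short and had only 92.33 and 59.8 of the 4665 and 3991 expected counts of Celsr3. By expected counts Celsr3-207 held 82.7% and 77.5%.

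The 6 Fat and Dachsous genes lay between 0.19 and 17.4 TPM. Fat3, which shapes the dendrites of retinal amacrine cells in mice, had 17.4 and 14.4 TPM. Fat4, the main partner of Dchs1, had 16.5 and 12.8 TPM. Their ranges overlapped. Fat1 had 12.2 and 11.4 TPM. Dchs1 had 7.81 and 6.81 TPM, and Dchs2 had 1.55 and 1.53 TPM. Fat1, Dchs1 and Dchs2 lay apart from each other in both libraries. Fat2, known from cerebellar granule cells, had 0.27 and 0.19 TPM, and the measured cerebellar markers were likewise below 1 TPM in each library. The division of Fat1 between Fat1-205 and Fat1-201, which have the same coding length of 13770 bases, differed between the replicates in RSEM. Fat1-205 took 44.1% in replicate 1 and 71.1% in replicate 2, and Fat1-201 took 40.1% and 6.40%. In kallisto Fat1-205 took 74.5% and 66.6% and Fat1-201 took 2.49% and 3.89%, without such a gap.

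The ranking of the groups depends on whether length is taken into account. By TPM, delta-1 protocadherins held 32.8% ± 0.989 of the family (mean ± SD, n = 2), type II cadherins 18.2% ± 0.478, delta-2 protocadherins 14.1% ± 0.991 and Celsr genes 12.3% ± 0.755. Other protocadherins held 7.67% ± 0.233, type I cadherins 6.50% ± 0.367, Fat and Dachsous genes 5.88% ± 0.490 and other cadherins 2.45% ± 0.165. By expected counts, in which length is not removed, delta-1 protocadherins still held most, at 24.7% ± 0.0295. Celsr genes then came second with 20.1% ± 0.371, and Fat and Dachsous genes, whose transcripts are among the longest, held 15.0% ± 1.31.

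**Figure D4:**
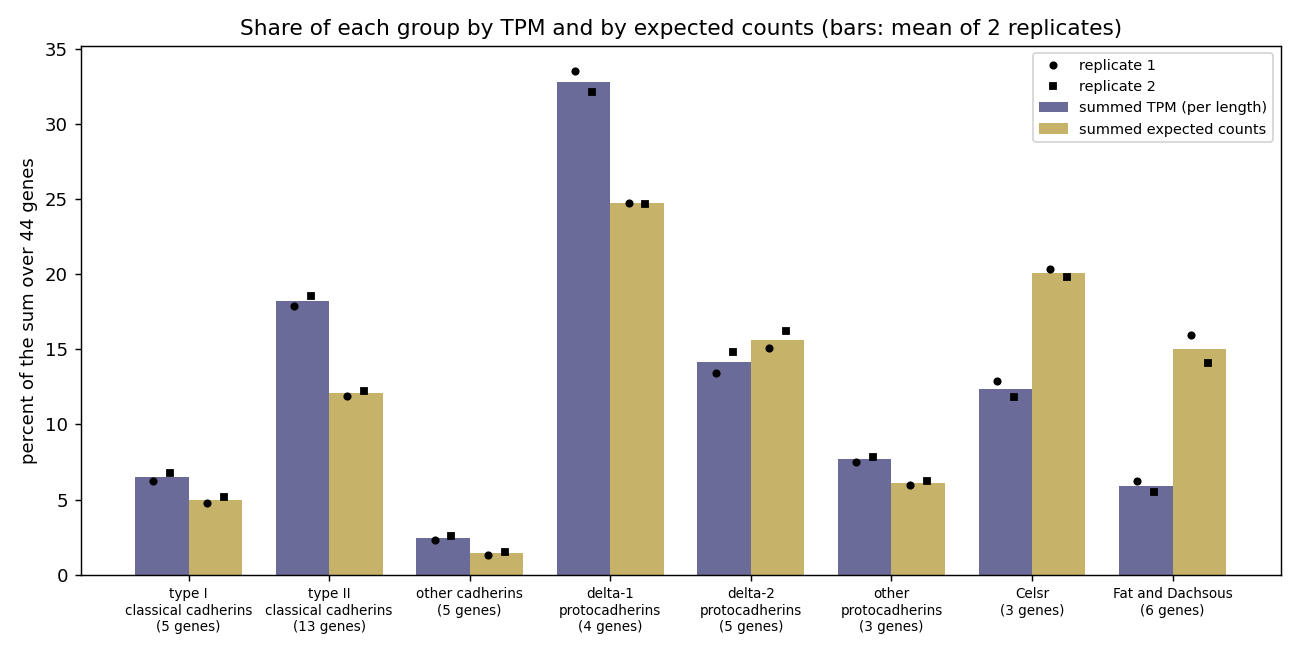
Percent of the sum over the 44 genes held by each of 8 groups, by TPM and by expected counts, with bars for the mean, circles for replicate 1 and squares for replicate 2. Delta-1 protocadherins are highest on both scales (32.8% and 24.7%), and Fat and Dachsous genes hold 5.88% of TPM but 15.0% of counts.

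Most members were led by a transcript that both libraries named. In 27 of the 35 genes examined, or 25 of the 33 with more than 1 transcript, the leading transcript held at least 50% of TPM. It was the same in both replicates in 33 genes, the exceptions being Pcdh11x and Cdh7. RSEM and kallisto named the same leading transcript in 28 genes and different ones in 7 (Pcdh9, Pcdh20, Pcdh10, Cdh10, Pcdh11x, Cdh7 and Cdh23). In Cdh10, for example, RSEM gave Cdh10-202 65.7% and 81.6%, whereas kallisto gave Cdh10-201 71.5% and 61.1%. Both transcripts encode 2364 coding bases with the same end. The share of full-length coding transcripts had a median of 83.9% over the 35 genes. It was at least 90% in 13 genes and below 50% in 6, namely Pcdh9 (38.7% ± 3.38), Pcdh10 (48.9% ± 3.79), Cdh8 (39.1% ± 1.42), Pcdh15 (13.7% ± 1.43), Cdh7 (20.8% ± 1.72) and Cdh23 (20.0% ± 8.38; SD, n = 2 each). Kallisto gave 44.6% ± 14.0 for Cdh23 and 8.59% ± 2.00 for Pcdh15. In Cdh8, Cdh8-204 and Cdh8-201 (2133 and 2148 coding bases) fall just short of 90% of the longest, 2397. In Pcdh15, the leading Pcdh15-234 has 5031 coding bases against 5829 for the longest, and is likewise not counted as full length. Between 2 and 4 coding ends held 10% or more of TPM in both replicates in 6 genes (Cdh7, Cdh8, Fat1, Pcdh1, Pcdh10 and Pcdh15). Of these, Cdh7, Cdh8, Pcdh1 and Pcdh10 also passed in kallisto. The second end of Fat1 is that of Fat1-202, annotated as a target of nonsense-mediated decay, with 19.13 and 26.93 expected counts. The ends of Cdh7 include that of Cdh7-204, with the same annotation and 219 coding bases, and one with 228 coding bases. The counts of genes by leading transcript, full-length share and coding ends were not made over all protein-coding genes. Whether they set the family apart was therefore not tested.

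None of the 35 members with at least 100 expected counts on average differed between the replicates by more than 2-fold. Past 2-fold were 0.778% of the 12719 genes tested (0.134% higher and 0.645% lower in replicate 2). Of the 11905 protein-coding genes among them, 0.0756% were past 2-fold. The median absolute log2 ratio of the 35 members was 0.104, close to the 0.106 of protein-coding genes. With a common biological coefficient of variation of 0.0917 over 17576 genes, as edgeR estimated it, the libraries were close in general. Celsr3 had the lowest log2 ratio of replicate 2 over replicate 1, at -0.41, from 3991 expected counts in replicate 2 and 4665 in replicate 1. Fat4 followed at -0.27 (4885 and 5179 expected counts) and Fat3 at -0.24 (6195 and 6406). The coding transcripts of Celsr3 were lower in replicate 2 as well, with 14.0 TPM against 19.1 TPM in replicate 1. The highest ratios were those of Cdh22 at 0.26 (566 expected counts in replicate 2 and 413 in replicate 1), Cdh4 at 0.26 (766 and 560) and Cdh18 at 0.22 (274 and 206). In all, 15 of the 35 genes were lower in replicate 2 at any size, or 42.9%, against 37.8% of protein-coding genes. With libraries scaled to the spike-ins the median ratio of the 35 genes was -0.17, as was that of all genes, against 0.04 for both with TMM scaling. Above 0 were 3 of the 35 genes (Cdh22, Cdh4 and Cdh18) with spike-in scaling and 20 with TMM scaling, so the direction of the rest of these 20 depends on the scaling.

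**Figure D5:**
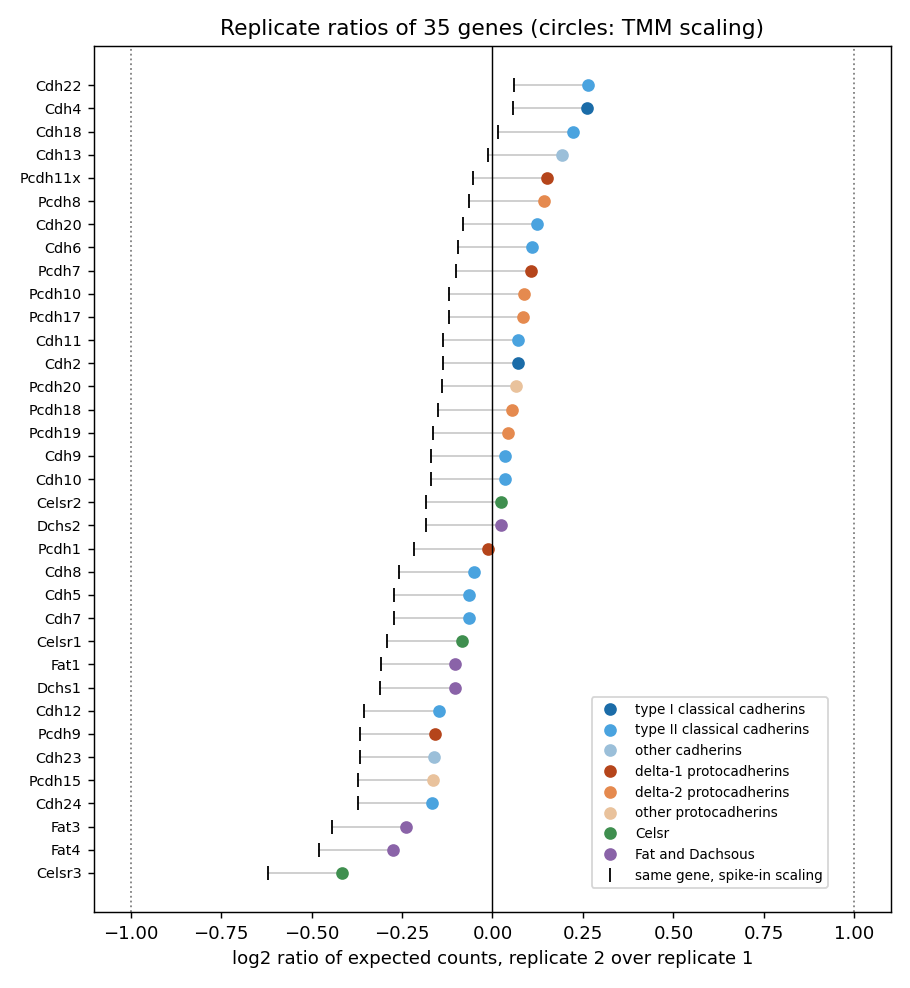
Log2 ratio of expected counts, replicate 2 over replicate 1, of 35 genes, with circles for TMM scaling, ticks for spike-in scaling and dotted lines at 2-fold. Circles run from -0.41 (Celsr3) to 0.26 (Cdh22), all inside the 2-fold lines, and each tick lies to the left of its circle.

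Transcripts annotated as retained introns took a smaller share in replicate 2 in this family, as they did elsewhere. Among the 18 members with at least 10 expected counts on such transcripts, the share was lower in replicate 2 in 16 (88.9%), against 82.5% of 6060 protein-coding genes, which is near the background and so not a result about these genes. The medians were 5.46% in replicate 2 and 8.92% in replicate 1 over the members, and 10.5% and 14.5% over protein-coding genes. Cdh13 had 7.98% in replicate 2 and 17.3% in replicate 1, Cdh10 5.49% and 13.3%, and Celsr2 4.90% and 10.7%. These are shares of TPM. On such transcripts Celsr2 had only 58.57 of 18840 expected counts in replicate 2 and 111.26 of 16251 in replicate 1. Pcdh15 and Cdh23 were the exceptions, with 45.6% and 29.4% in replicate 2 and 42.5% and 5.19% in replicate 1. In kallisto Pcdh15 was lower in replicate 2, with 46.6% against 49.4% in replicate 1. The part of this shift in the gene ratios above was not tested.

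Kallisto gave most members a higher TPM than RSEM, as it did protein-coding genes in general. Across protein-coding genes the log2 ratio of kallisto over RSEM TPM (0.1 added) had a median of 0.64, and it was 0.57 over the 35 members. Farthest above were Cdh17 (1.42), Cdh19 (1.06) and Cdh16 (1.04), of which Cdh16 and Cdh17 have no counts in RSEM. Farthest below were Cdh26 (-0.32), Cdh23 (-0.19) and Cdh1 (0.18), all at or below 1.54 TPM in both tables. Among well-counted genes Pcdh10 stood at 0.89 and Pcdh19 at 0.18, and in both of these the tables also differ on a short transcript. For Pcdh19 this is the 335-base Pcdh19-204, with 19.8% and 15.8% of RSEM TPM and listed at 0 in kallisto.

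The genes are large, and some share exonic bases with other genes. Their median span was 120 kb, against 17.3 kb for protein-coding genes, and 24 of the 44 exceeded 100 kb, as did 11.3% of protein-coding genes. Pcdh15 is the longest at 1550 kb. They lie on 14 chromosomes, with 9 on chromosome 8, 6 on chromosome 15 and 5 each on chromosomes 3 and 14. Only Cdh11 had a posterior SD above 0 in its count (0.87 in replicate 1 and 0.4 in replicate 2), which measures how uncertain the sharing of reads with similar genes was. In exonic bases, 12 members overlap other annotated genes. The number of shared bases, and the share of all protein-coding genes with such an overlap, were not measured. Those at 1 TPM or more were Gm49685 beside Cdh12 (4.52 TPM), C230034O21Rik beside Fat4 (3.39 TPM) and 4932441J04Rik beside Pcdh7 (1.47 TPM). Gm49685 lies on the same strand as Cdh12, so strand does not separate their reads. The other two lie opposite to their member, and whether the counting used strand is not given in the sources used here.

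The proteins that cadherins work with were present in the same libraries. Of 9 catenins and relatives, 8 reached 1 TPM. Ctnnb1, which links cadherins to alpha-catenin, led at 265 ± 10.5 TPM (SD, n = 2), followed by Pkp4 at 128 ± 15.7 and the neuronal delta-catenin Ctnnd2 at 97.8 ± 3.28. Ctnna3 was the exception at 0.67 ± 0.0707. Among genes of cadherin cleavage, the sheddase Adam10 stood at 26.3 ± 1.29 TPM, the proprotein convertase Furin at 18.6 ± 0.792 and Psen2 at 9.67 ± 1.62, the lowest. Of the 8 WAVE complex genes, all exceeded 10 TPM. Nckap1 (238 ± 3.34), Cyfip2 (211 ± 1.38) and Wasf1 (190.5 ± 1.01) led, and Wasf2 was lowest (13.1 ± 1.18). All 10 planar polarity genes reached 1 TPM, with Prickle2 at 84.9 ± 2.06, Prickle1 at 34.1 ± 0.262, Dvl1 at 32.9 ± 0.0283 and the lowest, Vangl1, at 3.10 ± 1.22. Their levels describe the tissue as a whole and do not show that they are present in the same cells as the cadherins.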

How the data were processed

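Total RNA of 2 hippocampus libraries of 1 group was analysed. Notes deposited beside the tables name mm10 and GENCODE M21; per the file headers, the authors deposited RSEM and kallisto output, which the notes derive from a transcriptome alignment (RSEM) and from reads (kallisto). Expected count and TPM are, per the file headers, the deposited units for each gene or transcript. The aligner, versions and strand settings were not given in the sources used here. Reads of both parental genomes of the hybrid were referred to 1 genome, and alleles were not separated. Spike-ins (0.367% and 0.414% beside the gene counts) and 26248 numbered rows that name no gene (6 and 2 counts) stayed out of library sizes. No column was left unmapped.

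No test between groups and no p-values were possible with 1 group. Levels, also those of the lists, are in TPM per replicate or as mean ± SD (n = 2). The median level of the members was also taken as log2(TPM + 0.1). For replicate ratios, expected counts were rounded and scaled by TMM in edgeR 4.0.16 (R 4.3.3, prior count 0.5). DESeq2 1.42.0 size factors, spike-ins, deposited TPM with 0.5 added, kallisto, other minimums and pseudocounts, and each replicate alone were alternatives. Python 3.11.15, pandas 2.3.3, numpy 2.4.6 and matplotlib 3.10.9 did the rest. All members are named, with per-replicate values at 1 TPM or more; of lists and ratios, the 3 highest and the lowest. Other transcripts were chosen after their values were seen. Members and lists were chosen with earlier results of these data known. Protein features were not analysed here. 1 gene of the cleavage list is not reported here.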

Additional observations from a re-analysis of the deposited data

How the results depend on the processing

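The median level of the members, as log2(TPM + 0.1), was 2.92. It was 3.08 with a pseudocount of 1, 3.73 over the members at 1 TPM or more, 3.53 in kallisto, and 2.81 to 3.03 with either replicate left out. The share of delta-1 protocadherins was 32.8% by TPM and 24.7% by expected counts. The median replicate ratio was 0.04, and turned to -0.17 with spike-in scaling, as did the median of all genes. The median share of full-length coding transcripts was 83.9%, 80.2% in kallisto, and 85.6 to 88.9% with either replicate left out. Members with at least 2 coding ends numbered 6, and 9 to 10 in a single replicate, where the threshold need not be passed in both. The other 37 of 45 recomputed values that answer a comparison stayed within the replicate SD or 1.5 times of a count. Members at 1 TPM or more numbered 35 to 36, against 36 at a minimum of 0.5 TPM and 32 at 2 TPM, and those at 10 TPM or more 19 to 26. The count of members over 2-fold apart was 0 under every scaling and count minimum run. No paired analysis was possible because there is only 1 group. Alternatives for retained introns (11 of 13 to 17 of 18 members lower in replicate 2, and 12 of 16 in kallisto) and for coding ends were chosen after seeing the data. With 2 replicates that may be technical in part, SDs are rough, and transcripts with few counts, as in Cdh7 and Cdh23, are the least certain.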
